A study of Mus musculus with 6 samples.

Results

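The axon guidance ligands and receptors were examined in the hippocampus of 3 WT (Ube3am+/p+) and 3 Ube3am-/p+ mice. Members were taken by gene symbol: semaphorins of classes 3 to 7, plexins, neuropilins, Eph receptors, ephrins, Slits, Robos, netrins with netrin-Gs, and Unc5 receptors with *Dcc*. This gave 74 of the 25239 genes in the counts. Of these, 3 match by name only: *Unc50*, a Golgi membrane protein, *Unc5cl*, a death domain protein, and *Plxna4os1*, an antisense RNA. The other 71 encode guidance proteins. All mice were C57BL/6 males aged 6 to 8 weeks, and each library was made from total RNA of 1 mouse. The Ube3am-/p+ mouse, a model of Angelman syndrome, lacks a functional maternal *Ube3a* allele and keeps the paternal allele, which is silent in most neurons. The allele's construct and the litters of the mice are not given in the sources used here.

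Guidance cues steer growing axons by attraction or repulsion, and many stay active at adult synapses and in blood vessels. Secreted class 3 semaphorins act through neuropilins and A-type plexins, except Sema3E, which binds plexin D1 directly. Ephrins are bound to the membrane and signal through Eph receptor kinases of the A and B classes, in both directions between cells. Slits repel axons through Robo receptors, and netrin-1 attracts through DCC and repels through UNC5 receptors. In the hippocampus these families guide the mossy fibres and the entorhinal input and shape dendritic spines.

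Expression was measured as counts of reads per gene, with 7293272 to 8675252 counts on genes in WT and 8871052 to 11314409 in Ube3am-/p+ mice. *Ube3a* itself had 104, 141 and 151 CPM (counts scaled to 1000000 gene counts per library) in WT mice 1, 2 and 3 and 96.8, 82.9 and 80.6 CPM in Ube3am-/p+ mice 1, 2 and 3 (log2 fold change -0.58, standard error 0.12, adjusted p = 0.0363, edgeR). The call was lost without WT mouse 2 or 3 or Ube3am-/p+ mouse 2 or 3 (adjusted p up to 0.251, edgeR). This fall became -0.20 (adjusted p = 0.240, edgeR) after each library was corrected for the GC content and length of transcripts. The libraries differed in how expression followed transcript GC content: across 14201 genes, Spearman's rho with the deviation from the mean library was 0.0455, -0.506 and -0.571 for WT mice 1, 2 and 3, whereas for the Ube3am-/p+ mice it was 0.0588, 0.526 and 0.528. In mice 2 and 3 this GC trend ran with genotype. The correction was fitted on the same libraries, so it also removes any genotype difference that follows GC content. Such a difference and one between libraries for other reasons cannot be told apart. Summed markers of dentate granule neurons were present at 591 to 599 CPM in WT and 520 to 569 CPM in Ube3am-/p+ mice, and those of pyramidal neurons at 786 to 822 and 702 to 834 CPM. The median log2 fold change of the granule neuron markers was -0.14, and -0.0026 after the GC and length correction. For the pyramidal neuron markers it was -0.041 and -0.030. In bulk tissue, fewer cells of a type, less RNA per cell and the GC trend of the libraries cannot be told apart.

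A total of 71 of the 74 members passed the filter on low counts, and 4 of them (5.63%) were called, meaning that adjusted p was below 0.05 and levels differed by more than 1.2-fold, against 2.01% of the 14445 genes tested. *Plxnd1*, *Efna3* and *Sema6b* were higher (1.02% of all genes were called higher) and *Unc5c* was lower in Ube3am-/p+ mice (0.99%). At an unadjusted p below 0.05 there were 25 members (35.2%), 15 higher and 10 lower, against 24.6% of all genes, 12.2% higher and 12.4% lower. No overlap between genotypes was found in 19 members (26.8%), 9 higher and 10 lower, against 25.0% of all genes, 10.8% higher and 14.2% lower, which is about the same share. The median log2 fold change was 0.07 over the members and 0.00 over all genes tested, and its median size was 0.19 and 0.18. With DESeq2 in place of edgeR, 9 members were called, against 6.69% of all genes, and the fit without a filter on low counts also called 9 (6.1%). Other scaling gave 5 calls with DESeq2 size factors (2.76%), 5 with library size alone (2.04%) and 4 with upper-quartile factors (1.88%), and at least 10 counts in every library gave 5 (2.87%). The unadjusted p with the same fold threshold gave 18 members (19.6%). After the GC and length correction 2 members were called, *Efna3* and *Unc5c*, against 0.648% of all genes, and a fit that also blocked on replicate number called 0 (0.0915%). The number of calls moved with single mice: it was 14 without WT mouse 1 (17.6% of all genes) and 19 without Ube3am-/p+ mouse 1 (12.5%). It was 0 without WT mouse 2, WT mouse 3, Ube3am-/p+ mouse 2 or Ube3am-/p+ mouse 3, where at most 0.0137% of all genes were called. In these last fits 14 to 18 members had an unadjusted p below 0.05, against 2075 to 2429 of the 14540 to 14635 genes tested (edgeR).

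**Figure D1:**
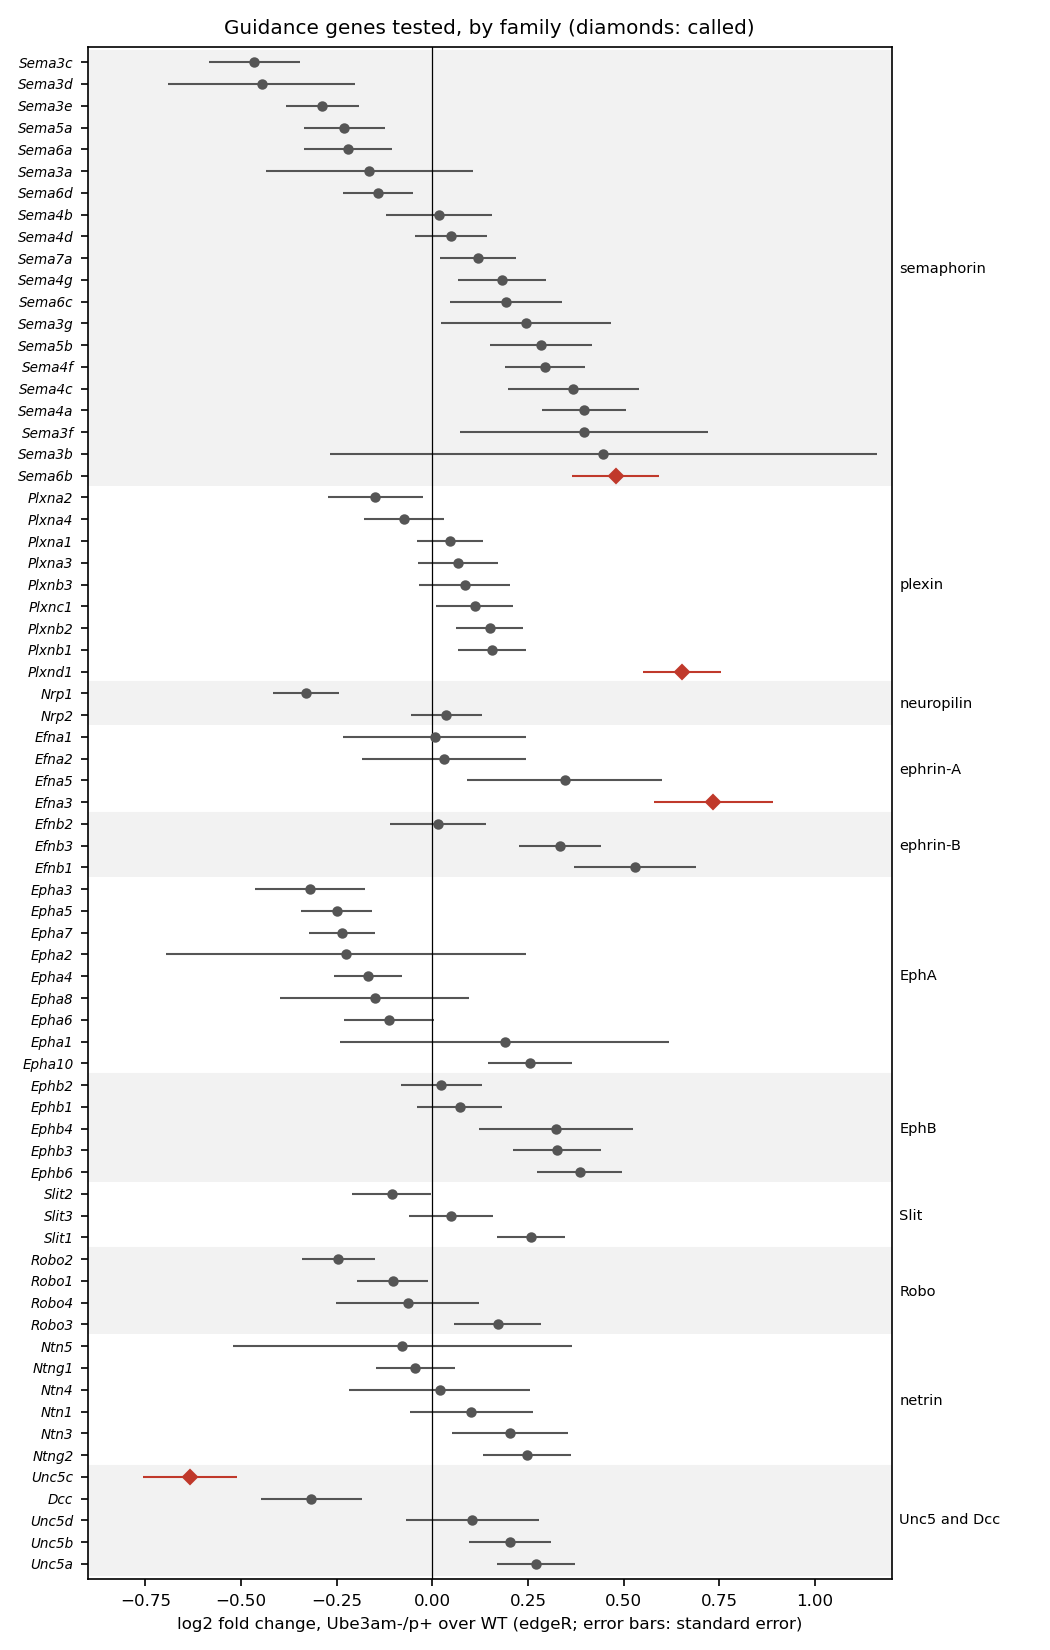
Log2 fold change of each tested guidance gene, Ube3am-/p+ over WT, from edgeR on 3 against 3 mice, with genes in rows by family and error bars as standard errors. The 4 red diamonds are the genes called, with *Plxnd1*, *Efna3* and *Sema6b* to the right of 0 and *Unc5c* to the left.

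The promoters of the 4 called genes are shown because their base composition differs less than that of the transcripts. The transcripts of *Plxnd1*, *Sema6b* and *Efna3* had a GC content of 60.8%, 63.5% and 56.1%, and that of *Unc5c* 44.4%. The promoter windows, from 250 bases before to 50 after the start in RefSeq (GRCm38.p6), had a GC content of 67.0%, 69.0%, 64.0% and 68.3% in the same order. For tested members the median promoter GC content was 64.3% (77 windows of 61 members), and over all 32851 windows it was 52.7%. Capitals mark the GC box, GGGCGG on either strand, which was found in 71.4% of member windows and 35.7% of all windows. The windows are chr6:115994956-115995255 (*Plxnd1*), chr17:56140294-56140593 (*Sema6b*) and chr3:89322890-89323189 (*Efna3*), all on the minus strand, and chr3:141465314-141465613 (*Unc5c*) on the plus strand, each written 5′ to 3′ along its gene.
*Plxnd1*: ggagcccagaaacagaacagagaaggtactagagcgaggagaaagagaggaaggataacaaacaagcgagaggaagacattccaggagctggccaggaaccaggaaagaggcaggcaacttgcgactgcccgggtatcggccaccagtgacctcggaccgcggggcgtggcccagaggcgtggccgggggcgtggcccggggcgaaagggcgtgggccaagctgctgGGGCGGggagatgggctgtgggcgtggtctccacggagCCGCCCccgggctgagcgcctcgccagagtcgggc
*Sema6b*: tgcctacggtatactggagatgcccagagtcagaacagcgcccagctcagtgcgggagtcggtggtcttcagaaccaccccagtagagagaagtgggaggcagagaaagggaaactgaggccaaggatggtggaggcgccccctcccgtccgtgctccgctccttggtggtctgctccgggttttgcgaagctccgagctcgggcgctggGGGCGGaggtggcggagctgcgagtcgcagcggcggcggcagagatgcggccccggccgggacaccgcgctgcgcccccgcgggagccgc
*Efna3*: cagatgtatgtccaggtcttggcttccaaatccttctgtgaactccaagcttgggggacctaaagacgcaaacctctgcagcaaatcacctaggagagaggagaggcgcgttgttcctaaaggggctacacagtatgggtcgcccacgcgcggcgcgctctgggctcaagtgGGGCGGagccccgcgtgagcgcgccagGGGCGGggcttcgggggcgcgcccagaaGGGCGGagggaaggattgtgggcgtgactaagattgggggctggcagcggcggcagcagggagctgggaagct
*Unc5c*: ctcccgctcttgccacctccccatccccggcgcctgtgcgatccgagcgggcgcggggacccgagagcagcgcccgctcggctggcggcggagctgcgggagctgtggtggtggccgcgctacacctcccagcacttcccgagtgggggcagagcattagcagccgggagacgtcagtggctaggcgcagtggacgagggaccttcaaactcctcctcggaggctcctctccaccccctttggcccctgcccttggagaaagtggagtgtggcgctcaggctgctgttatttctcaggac
*Plxnd1* held 2 GC boxes, *Sema6b* 1, *Efna3* 3 and *Unc5c* 0 in these letters. The *Unc5c* window lies inside the gene as annotated in GENCODE M21, which starts at 141465216. For *Efna3* and *Sema6b* 2 promoters each were listed, of which 1 is shown. The half-sites of retinoic acid response elements, AGGTCA and AGTTCA on either strand, were also counted, as the study concerns retinoic acid signalling. *Plxnd1* and *Efna3* held 1 each and the other windows 0. Such a half-site stood in 14 of the 77 member windows (18.2%) and in 27.7% of all windows. No member window held 2 half-sites in one orientation 5 bases apart, and 13 of all 32851 windows did.

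Levels were compared between genes per length, as CPM per kilobase of annotated exon (RPKM). Across both genotypes, 20 members lay at 10 RPKM or more, 45 between 1 and 10 RPKM, and 9 below 1 RPKM. The highest were *Slit1*, a secreted repellent, with 58.5 ± 5.36 RPKM (SD, n = 3) in WT and 69.2 ± 3.34 RPKM (SD, n = 3) in Ube3am-/p+ mice, and *Epha4*, a receptor for both ephrin classes, with 65.8 ± 2.58 and 57.9 ± 5.94 RPKM (SD, n = 3 each). Next came *Sema7a*, a membrane-anchored semaphorin, with 53.6 ± 5.15 and 57.4 ± 5.87 RPKM (SD, n = 3 each), *Efnb3* with 45.3 ± 5.38 and 56.4 ± 6.53 RPKM, and *Unc5a* with 38.8 ± 4.23 and 46.3 ± 4.92 RPKM. The order of *Slit1* and *Epha4* differed between the genotypes, with *Epha4* first in WT and *Slit1* first in Ube3am-/p+ mice. Neither gene was called, and after the GC and length correction their log2 fold changes were 0.07 and -0.03. In WT mice the mean ± SD of *Slit1* met those of both *Epha4* and *Sema7a*, and in Ube3am-/p+ mice it lay above both. These spreads leave out that the genes were measured in the same mice, so they do not decide the order within a mouse. At the low end, the class 3 semaphorins *Sema3a* (0.317 RPKM over both genotypes), *Sema3d* (0.789 RPKM) and *Sema3f* (0.835 RPKM) were listed far below their receptor *Plxna1* (31.2 RPKM). Among the A-type ephrins, *Efna3* had 17.4 RPKM and *Efna4* 0.321 RPKM.

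**Figure D2:**
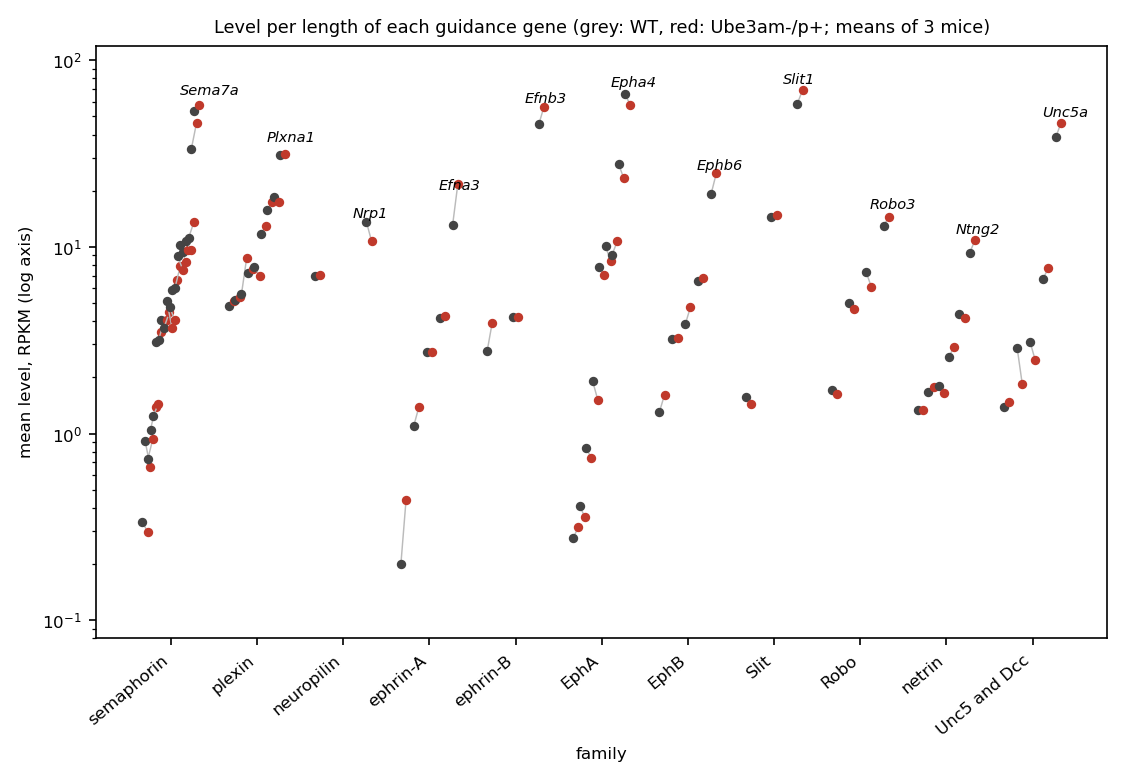
Mean level of each guidance gene in RPKM on a log axis, by family, in WT (grey) and Ube3am-/p+ mice (red), 3 mice each. *Slit1* and *Epha4* stand at the top, and the named gene is the highest of its family.

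Plexins are the signalling receptors of semaphorins. The only plexin called was *Plxnd1*, the receptor of Sema3E, which is best known from blood vessels and from synapse formation (chromosome 6 of GRCm38, 115954811 to 115995005, minus strand, GENCODE M21). It had 37.7, 42.1 and 42.5 CPM in WT mice 1, 2 and 3 and 70.5, 60.6 and 59.0 CPM in Ube3am-/p+ mice 1, 2 and 3. All Ube3am-/p+ mice lay above all WT mice, and mouse 1 of each genotype lay farthest out. The mean rose, with 40.8 ± 2.66 CPM in WT and 63.4 ± 6.19 CPM in Ube3am-/p+ mice (SD, n = 3 each, log2 fold change 0.65, standard error 0.10, adjusted p = 0.0246, edgeR). An exact permutation test of the mice gave a two-sided p of 0.1 here, as for every gene below without overlap between the genotypes, and 0.1 is the smallest p that 3 mice against 3 allow. Fits that each lacked 1 mouse gave 0.58 to 0.70, with adjusted p from 0.00263 to 0.232 (edgeR), below 0.05 only without WT mouse 1 or Ube3am-/p+ mouse 1. After the GC and length correction it was 0.44 (adjusted p = 0.0637, edgeR). Summed endothelial and mural markers, which could carry this gene, were 411 to 443 CPM in WT and 369 to 404 CPM in Ube3am-/p+ mice, with 1 of 9 called, *Rgs5*, which fell. The lower sum came mostly from *Rgs5*, with 117, 127 and 136 CPM in WT and 106, 83.2 and 74.8 CPM in Ube3am-/p+ mice. The log2 fold changes of 5 of the 9 markers were above 0 and those of 4 below, with a median of 0.05, and of -0.055 after the GC and length correction. They ran from -0.51 in *Rgs5* to 0.46 in *Cldn5* (adjusted p = 0.0751, edgeR). After the correction these 2 were at -0.29 and 0.14 (adjusted p = 0.0750 and 0.572, edgeR). The other 8 plexins had log2 fold changes from -0.15 to 0.16. *Plxna1*, the highest plexin, had 296, 287 and 257 CPM in WT and 274, 283 and 300 CPM in Ube3am-/p+ mice 1, 2 and 3, with overlap (log2 fold change 0.05, standard error 0.09, adjusted p = 0.779, edgeR). Exons of *Gm26811* on the opposite strand cover 970 bp of *Plxna1*.

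Among the genes for partners of plexin D1, *Sema3c*, *Sema3e* and the co-receptor gene *Nrp1* had negative log2 fold changes, and *Sema4a*, a further ligand described with class 4, a positive one. None was called by edgeR, while DESeq2 and the fit without a filter on low counts called *Sema3c*, *Nrp1* and *Sema4a*. *Sema3c*, a secreted semaphorin that binds neuropilins, had 33.2, 39.8 and 36.9 CPM in WT mice 1, 2 and 3 and 29.5, 23.95 and 25.3 CPM in Ube3am-/p+ mice (log2 fold change -0.47, standard error 0.12, adjusted p = 0.0513, edgeR). *Sema3e*, the direct ligand, had 90.8, 95.3 and 98.5 CPM and 86.2, 70.0 and 74.2 CPM (log2 fold change -0.29, standard error 0.10, adjusted p = 0.0893, edgeR). The receptor component *Nrp1* had 129, 131 and 140 CPM and 113, 102 and 99.2 CPM (log2 fold change -0.33, standard error 0.09, adjusted p = 0.0531, edgeR). In these 3 genes every Ube3am-/p+ mouse lay below every WT mouse, and Ube3am-/p+ mouse 1 lay closest to WT. After the GC and length correction the log2 fold changes were -0.26, -0.05 and -0.13 (adjusted p between 0.230 and 0.825, edgeR). *Nrp1* had an adjusted p of 0.0194 with DESeq2 and 0.0297 without a filter (edgeR). *Sema3c* was also called with library size alone, with DESeq2 size factors and with the stricter filter on low counts. The other neuropilin, *Nrp2*, had a log2 fold change of 0.04 (standard error 0.09).

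**Figure D3:**
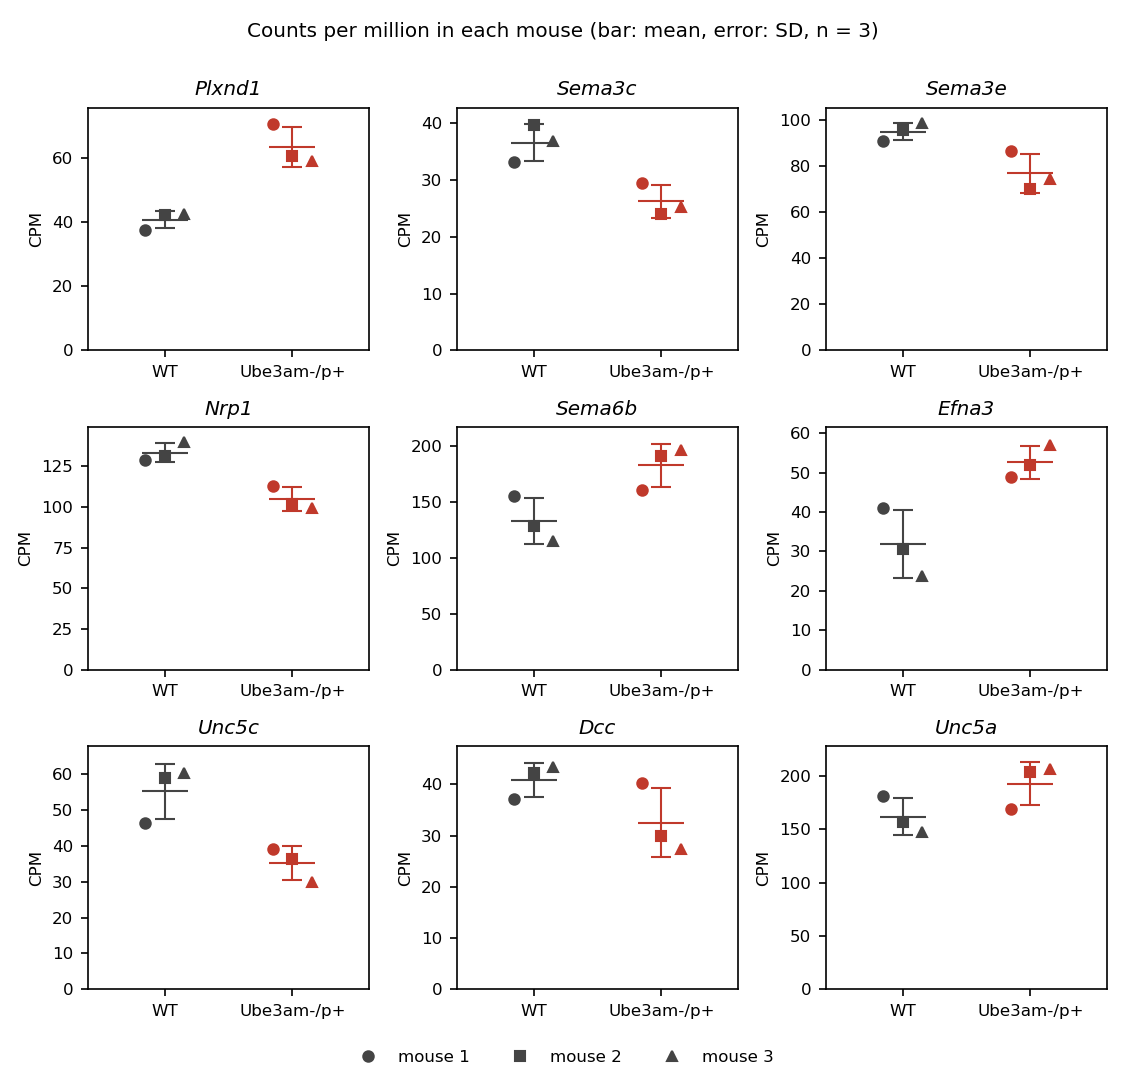
CPM of 9 guidance genes in each mouse, with bars for the mean and errors for the SD of 3 mice, axes starting at 0, and symbols for mouse 1, 2 and 3. *Plxnd1*, *Sema6b* and *Efna3* were higher and *Unc5c* lower in all Ube3am-/p+ mice, and in *Sema6b* the mice numbered 1 of both genotypes lay next to each other, at 155 and 161 CPM.

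Among the semaphorins, 1 of the 20 tested was called by edgeR (2.01% of all genes), and 5 were higher and 3 lower at an unadjusted p below 0.05 (12.2% and 12.4% of all genes). DESeq2 called 3, *Sema3c*, *Sema4a* and *Sema6b*. *Sema6b*, a transmembrane ligand of A-type plexins that acts on mossy fibres (chromosome 17, 56123085 to 56140343), had 155, 128 and 115 CPM in WT mice 1, 2 and 3 and 161, 191 and 196 CPM in Ube3am-/p+ mice 1, 2 and 3. The genotypes did not overlap, but WT mouse 1 and Ube3am-/p+ mouse 1 were close. The mean rose, with 133 ± 20.3 CPM in WT and 183 ± 19.3 CPM in Ube3am-/p+ mice (SD, n = 3 each, log2 fold change 0.48, standard error 0.11, adjusted p = 0.0429, edgeR). With each mouse left out it lay between 0.38 and 0.61, with adjusted p up to 0.268 (edgeR) and no call without WT mouse 2 or 3 or Ube3am-/p+ mouse 2 or 3. The GC and length correction lowered it to 0.18 (adjusted p = 0.222, edgeR).

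The class 4 semaphorins are transmembrane ligands, mostly of B-type plexins. All 6 had positive log2 fold changes, with a median of 0.24. Their transcripts had a median GC content of 56.9%. After the GC and length correction the 6 ran from -0.15 to 0.22, with a median of 0.06. In edgeR 0 of 6 were called, and 3 were higher at an unadjusted p below 0.05 (12.2% of all genes). DESeq2 called *Sema4a* (adjusted p = 0.0392), as did edgeR without a filter (adjusted p = 0.0235). *Sema4a* had 31.7, 35.9 and 30.4 CPM in WT and 39.6, 42.3 and 45.5 CPM in Ube3am-/p+ mice 1, 2 and 3, without overlap (log2 fold change 0.40, standard error 0.11, adjusted p = 0.0605, edgeR). *Sema4f* had 65.0, 54.2 and 58.3 CPM and 63.9, 77.3 and 73.4 CPM (log2 fold change 0.29, standard error 0.10, adjusted p = 0.105, edgeR). *Sema4c* had 15.9, 12.9 and 14.8 CPM and 13.6, 21.2 and 20.4 CPM (log2 fold change 0.37, standard error 0.17, adjusted p = 0.194, edgeR). In *Sema4c* and *Sema4f*, Ube3am-/p+ mouse 1 lay within the WT range. Exons of *D430040D24Rik* on the opposite strand cover 334 bp of *Sema4c*. *Sema5a*, which acts on the dendrites of granule neurons, went the other way, with 152, 170 and 177 CPM in WT and 164, 136 and 121 CPM in Ube3am-/p+ mice (log2 fold change -0.23, standard error 0.11, adjusted p = 0.190, edgeR). *Sema7a*, the highest semaphorin, had 196, 170 and 164 CPM and 168, 194 and 206 CPM, with overlap (log2 fold change 0.12, standard error 0.10, adjusted p = 0.479, edgeR).

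*Sema3b* varied most within the genotypes of all tested members, with a within-genotype SD of 1.06 on the log2 scale, against their median of 0.15. It is singled out after its values were seen. It had 4.01, 1.84 and 9.19 CPM in WT mice 1, 2 and 3 and 9.24, 8.13 and 2.57 CPM in Ube3am-/p+ mice 1, 2 and 3. The summed markers of the choroid plexus were 607, 99.7 and 2185 CPM and 2270, 1611 and 106 CPM in the same mice, the same order of the 6 libraries. *Sema3b* was the only tested member with this order, which 22 of the 14445 genes tested shared. Among the choroid plexus markers 0 of 6 were called, and the ranges of both genotypes overlapped. The genotype difference of *Sema3b* was 0.45 (standard error 0.71, adjusted p = 0.748, edgeR).

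The ephrins are ligands bound to the cell membrane. Of the 7 tested, all had positive log2 fold changes and 1 was called (2.01% of all genes). After the GC and length correction *Efna1* and *Efna2* were negative, at -0.17 and -0.20. *Efna3*, an A-type ephrin found on astrocytes and neurons of the hippocampus (chromosome 3, 89313899 to 89322965), had 41.1, 30.7 and 23.9 CPM in WT mice 1, 2 and 3 and 48.8, 52.0 and 56.9 CPM in Ube3am-/p+ mice 1, 2 and 3. The genotypes did not overlap, and WT mouse 1 was the closest to the other group. Its mean rose, with 31.9 ± 8.69 CPM in WT and 52.6 ± 4.10 CPM in Ube3am-/p+ mice (SD, n = 3 each, log2 fold change 0.73, standard error 0.16, adjusted p = 0.0387, edgeR). With each mouse left out it lay between 0.57 and 0.96, with adjusted p from 0.000845 to 0.251 (edgeR), and it was called only without WT mouse 1 or Ube3am-/p+ mouse 1. After the GC and length correction *Efna3* was still called, at 0.56 (adjusted p = 0.0388, edgeR). Exons of *Gm15998* on the opposite strand cover 344 bp of *Efna3*. Summed astrocyte markers were 1533 to 1681 CPM in WT and 1448 to 1546 CPM in Ube3am-/p+ mice, with 0 of 6 called. Its neighbours on chromosome 3 are also ephrins: *Efna1*, 32.8 kb away, had a log2 fold change of 0.01 (standard error 0.24), and *Efna4*, 10.4 kb away, had 30 counts in the 6 libraries and was not tested.

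The B-type ephrins had a median log2 fold change of 0.33 (0.14 after the GC and length correction), and 0 of 3 were called by edgeR. At an unadjusted p below 0.05, 2 were higher (12.2% of all genes). DESeq2 called *Efnb3* (adjusted p = 0.0476), as did edgeR without a filter on low counts (adjusted p = 0.0281). *Efnb1* had 10.7, 8.88 and 8.91 CPM in WT and 13.2, 13.1 and 14.5 CPM in Ube3am-/p+ mice 1, 2 and 3, without overlap (log2 fold change 0.53, standard error 0.16, adjusted p = 0.0703, edgeR). *Efnb3*, the ephrin with the highest level and a ligand at hippocampal synapses, had 162, 144 and 127 CPM and 155, 192 and 191 CPM (log2 fold change 0.33, standard error 0.11, adjusted p = 0.0821, edgeR). Here the mice numbered 1 crossed, with WT mouse 1 above Ube3am-/p+ mouse 1. *Efnb2*, the third, had a log2 fold change of 0.01 (standard error 0.13).

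Eph receptors are the kinases that ephrins bind, and edgeR called 0 of the 14 tested. At an unadjusted p below 0.05 there were 1 higher and 3 lower among the EphA genes and 2 higher among the EphB genes. Of all genes, 12.2% were higher and 12.4% lower at this limit. After the GC and length correction 0 genes of either class had an unadjusted p below 0.05, against 14.2% of all genes (edgeR). DESeq2 called *Ephb6* (adjusted p = 0.0333), as did edgeR without a filter on low counts (adjusted p = 0.0157). The A and B classes lay on different sides: 7 of 9 EphA genes had negative log2 fold changes (median -0.17), and 5 of 5 EphB genes had positive ones (median 0.32). The EphA transcripts had a median GC content of 48.0% and the EphB transcripts of 57.0%, and after the GC and length correction the medians were -0.03 and 0.13. *Epha7* had 290, 263 and 273 CPM in WT and 244, 208 and 241 CPM in Ube3am-/p+ mice 1, 2 and 3 (log2 fold change -0.24, standard error 0.09, adjusted p = 0.116, edgeR). *Epha5* had 174, 173 and 159 CPM and 157, 127 and 137 CPM (log2 fold change -0.25, standard error 0.09, adjusted p = 0.119, edgeR). *Epha3* had 15.9, 17.1 and 16.7 CPM and 15.1, 12.4 and 11.98 CPM (log2 fold change -0.32, standard error 0.14, adjusted p = 0.185, edgeR). These 3 receptors did not overlap between the genotypes, as was found for 14.2% of all genes in the lower direction. *Epha5* and *Epha7* changed direction with the correction, to 0.033 and 0.0055. *Epha4*, the most abundant Eph receptor and a regulator of dendritic spines, had 554, 521 and 516 CPM and 521, 432 and 446 CPM, with overlap in mouse 1 of Ube3am-/p+ (log2 fold change -0.17, standard error 0.09, adjusted p = 0.253, edgeR). *Epha10* had 70.2, 68.4 and 57.5 CPM and 67.5, 81.6 and 81.9 CPM (log2 fold change 0.26, standard error 0.11, adjusted p = 0.163, edgeR), again with overlap.

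In the EphB class, *Ephb6*, a receptor without kinase activity, had 75.3, 72.2 and 70.6 CPM in WT and 76.3, 103 and 101 CPM in Ube3am-/p+ mice 1, 2 and 3 (log2 fold change 0.38, standard error 0.11, adjusted p = 0.0649, edgeR). The genotypes did not overlap, but Ube3am-/p+ mouse 1 exceeded WT mouse 1 by about 1 CPM. *Ephb3* had 27.0, 24.2 and 25.5 CPM and 31.1, 29.3 and 34.5 CPM, without overlap (log2 fold change 0.33, standard error 0.12, adjusted p = 0.105, edgeR). *Ephb1* and *Ephb2*, the EphB receptors known from excitatory synapses, had log2 fold changes of 0.07 (standard error 0.11) and 0.02 (standard error 0.11).

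Slits and their Robo receptors gave 0 calls among 7 genes tested, with edgeR and with DESeq2. *Slit1* was higher and *Robo2* lower at an unadjusted p below 0.05 (edgeR), as were 12.2% and 12.4% of all genes. After the GC and length correction their log2 fold changes were 0.07 and -0.02 (adjusted p = 0.68 and 0.94, edgeR). *Slit1* had 377, 349 and 314 CPM in WT and 387, 415 and 426 CPM in Ube3am-/p+ mice 1, 2 and 3, without overlap (log2 fold change 0.26, standard error 0.09, adjusted p = 0.10, edgeR). *Slit2* and *Slit3* had log2 fold changes of -0.11 and 0.05 (standard errors 0.10 and 0.11). *Robo2* had 118, 129 and 124 CPM and 117, 101 and 92.0 CPM, without overlap (log2 fold change -0.25, standard error 0.10, adjusted p = 0.133, edgeR). Its neighbour on chromosome 16, *Robo1*, had a log2 fold change of -0.10 (standard error 0.09). The divergent receptor *Robo3*, the highest Robo per length, had 102, 85.5 and 78.0 CPM and 96.0, 88.7 and 111 CPM, with overlap (log2 fold change 0.17, standard error 0.11, adjusted p = 0.369, edgeR). The vascular *Robo4*, which lies 0.554 kb from *Robo3*, had a log2 fold change of -0.06 (standard error 0.19).

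Netrin receptors of the Unc5 and *Dcc* group held the only call with lower expression. *Unc5c*, a repulsive receptor of netrin-1 (chromosome 3, 141465216 to 141834924, plus strand), had 46.4, 59.0 and 60.2 CPM in WT mice 1, 2 and 3 and 39.2, 36.4 and 29.9 CPM in Ube3am-/p+ mice 1, 2 and 3. All Ube3am-/p+ mice lay below all WT mice, and the mice numbered 1 lay closest to each other. The mean fell, with 55.2 ± 7.64 CPM in WT and 35.2 ± 4.82 CPM in Ube3am-/p+ mice (SD, n = 3 each, log2 fold change -0.63, standard error 0.12, adjusted p = 0.0362, edgeR). With each mouse left out it lay between -0.74 and -0.53, with adjusted p from 0.00127 to 0.251 (edgeR), and it was called only without WT mouse 1 or Ube3am-/p+ mouse 1. After the GC and length correction it was still called, at -0.45 (adjusted p = 0.0178, edgeR). Exons of *Gm15688* on the opposite strand cover 118 bp of *Unc5c*.

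The attractive receptor *Dcc* had 37.1, 42.3 and 43.3 CPM in WT and 40.2, 30.0 and 27.5 CPM in Ube3am-/p+ mice 1, 2 and 3 (log2 fold change -0.32, standard error 0.13, adjusted p = 0.156, edgeR). Its genotypes overlapped in Ube3am-/p+ mouse 1. *Unc5a*, the Unc5 receptor with the highest level per length, had 181, 157 and 147 CPM and 169, 203 and 206 CPM, with overlap (log2 fold change 0.27, standard error 0.10, adjusted p = 0.121, edgeR). It changed direction with the GC and length correction, to -0.016. *Unc5b* and *Unc5d* had log2 fold changes of 0.20 (standard error 0.11) and 0.10 (standard error 0.17). Of the netrins, the secreted ligand *Ntn1* had 10.2, 11.6 and 9.73 CPM in WT and 11.3, 11.8 and 10.5 CPM in Ube3am-/p+ mice (log2 fold change 0.10, standard error 0.16, adjusted p = 0.732, edgeR). The membrane-linked netrin-G2 gene, *Ntng2*, had 40.4, 33.9 and 36.8 CPM and 38.6, 48.5 and 42.9 CPM, with overlap (log2 fold change 0.25, standard error 0.11, adjusted p = 0.194, edgeR). It shares 558 bp of exon on the same strand with *6530402F18Rik*, which had 1245 counts in the 6 libraries, and its direction turned with the correction, to -0.045.

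**Figure D4:**
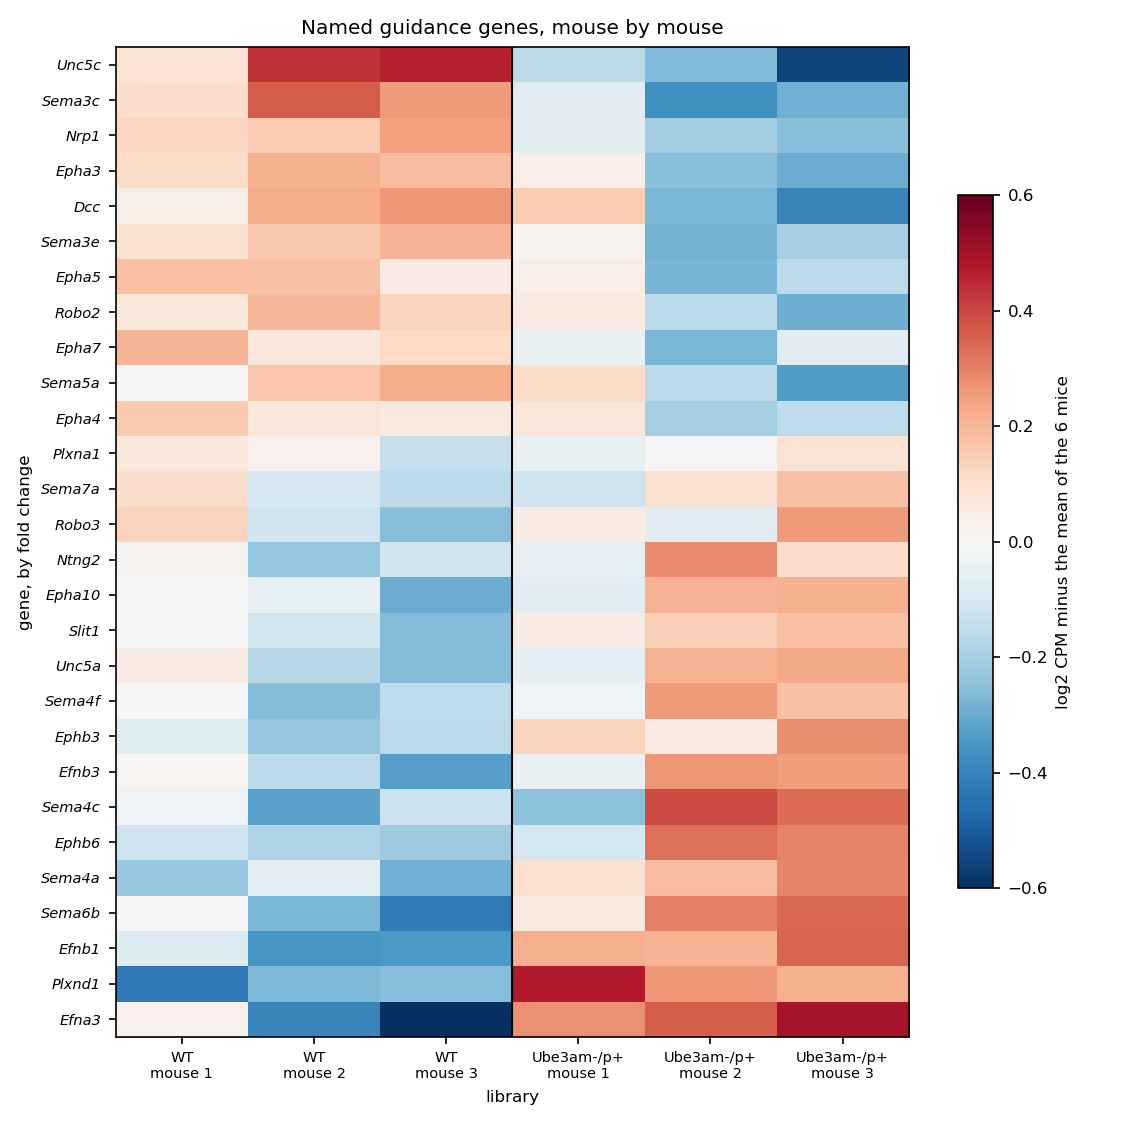
Log2 CPM of the 28 guidance genes described in full, minus the mean of the 6 mice, with genes in rows by fold change and mice in columns. In most rows mouse 1 of each genotype is paler than mice 2 and 3 of that genotype, and in *Plxnd1* it is darker.

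The direction of the members followed the GC content of their longest annotated transcript. All 15 members that were higher at an unadjusted p below 0.05 had a GC content of 56.1% to 63.5%, and all 10 lower ones of 40.1% to 45.9%. Over all genes tested, the medians of the same classes were 56.4% and 42.8%. Spearman's rho between GC content and log2 fold change was 0.70 across the 71 tested members and 0.62 across 14201 genes. Genes of the same libraries share their depth and composition, so these are descriptions. The 47 members with a GC content above 50% had a median deviation from the mean of the 6 mice, on the log2 scale, of 0.01, -0.11 and -0.16 in WT mice 1, 2 and 3 and of 0.04, 0.12 and 0.11 in Ube3am-/p+ mice 1, 2 and 3. The 24 others had 0.07, 0.09 and 0.15 in WT and 0.04, -0.20 and -0.22 in Ube3am-/p+ mice. Mouse 1 of each genotype thus lay between the other mice in GC-rich and GC-poor members alike. Of the GC-rich members 42 of 47 had a positive log2 fold change, and of the others 20 of 24 had a negative one. After the GC and length correction these counts were 25 and 15. Across the 25 members with an unadjusted p below 0.05, log2 fold changes had a median size of 0.32 before and 0.13 after it, 4 changed direction, and 7 kept an unadjusted p below 0.05. These 7 were the only ones of the 71 tested members below this limit after the correction, against 14.2% of all genes (edgeR). *Efna3*, *Plxnd1* and *Unc5c* stayed the farthest from 0 among the called genes, as the plot against GC content shows.

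**Figure D5:**
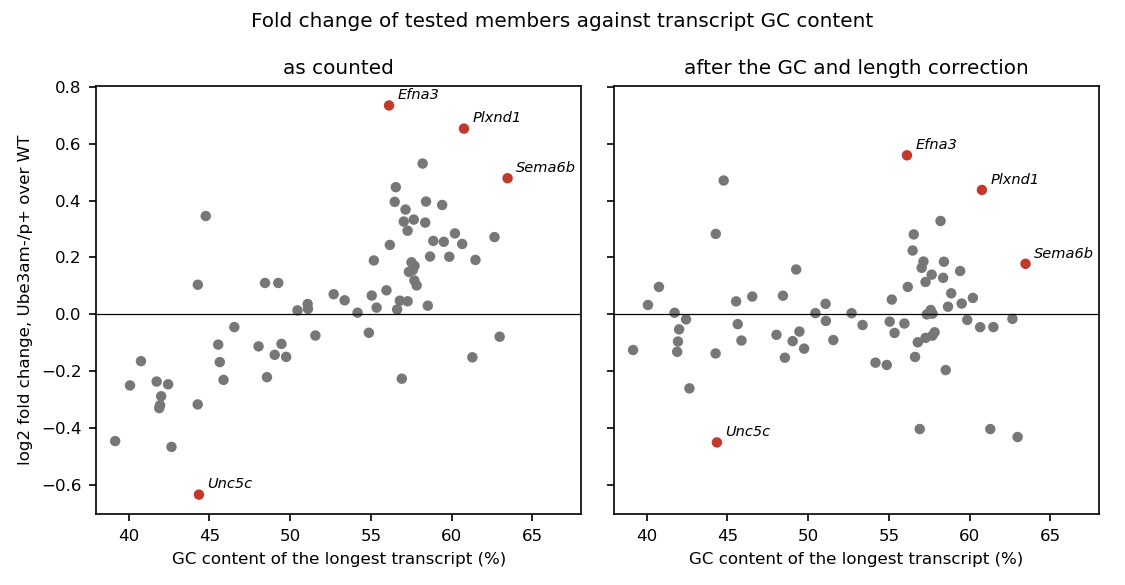
Log2 fold change of the 71 tested members, Ube3am-/p+ over WT, against the GC content of the longest transcript in percent, as counted (left) and after the GC and length correction (right), with called genes in red. The rise from left to right in the first panel (rho 0.70) is weaker in the second (rho 0.18), where *Efna3* and *Plxnd1* lie at 0.56 and 0.44 and *Unc5c* at -0.45.

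Further genes of these pathways were taken from lists for semaphorin and plexin, ephrin and Eph, Slit and Robo, and netrin signalling. Besides genes downstream of the receptors, the lists hold some other receptors and ligands. Of 82 listed genes 81 were in the counts, all were tested, and 2 were called (2.47%, against 2.01% of all genes). *Dpysl3*, a collapsin response mediator protein that relays semaphorin signals, fell, with 73.0, 73.5 and 72.1 CPM in WT and 51.5, 52.1 and 51.0 CPM in Ube3am-/p+ mice 1, 2 and 3 (log2 fold change -0.48, standard error 0.09, adjusted p = 0.0362, edgeR). It was -0.47 after the GC and length correction (adjusted p = 0.00716, edgeR). *Vasp*, an actin regulator, rose from 10.2, 8.76 and 7.27 CPM to 11.6, 17.2 and 16.7 CPM (log2 fold change 0.81, standard error 0.19, adjusted p = 0.0416, edgeR), and was 0.59 after the correction (adjusted p = 0.0750, edgeR). Without WT mouse 2 or 3 or Ube3am-/p+ mouse 2 or 3 neither gene was called, with adjusted p up to 0.251 for *Dpysl3* and 0.270 for *Vasp* (edgeR), although over all fits lacking 1 mouse the log2 fold changes were -0.50 to -0.47 and 0.70 to 0.98. At an unadjusted p below 0.05, 7 of the 81 genes were higher (12.2% of all genes) and 16 lower (12.4% of all genes). The median log2 fold change was -0.02.

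Markers of other cells were summed as a measure of what the samples held, and their part in the results above was not tested. Oligodendrocyte markers were 8219 to 8339 CPM in WT and 6872 to 7832 CPM in Ube3am-/p+ mice (0 of 8 called), oligodendrocyte precursor markers 250 to 255 and 233 to 242 CPM (1 of 6, *Pdgfra*, lower), and microglia markers 255 to 266 and 242 to 244 CPM (0 of 6). Meningeal and fibroblast markers were 92.7 to 152 CPM in WT and 94.8 to 177 CPM in Ube3am-/p+ mice (1 of 8, *Col1a1*, higher). Striatal markers were 64.7 to 82.7 and 89.4 to 106 CPM (1 of 6, *Ppp1r1b*, higher), and thalamic markers 123.2 to 134 and 113 to 127 CPM (1 of 6, *Rora*, lower). Of the striatal sum, *Ppp1r1b* alone held 37.4 to 51.2 CPM in WT and 57.5 to 66.8 CPM in Ube3am-/p+ mice. After the GC and length correction *Col1a1*, *Ppp1r1b* and *Rora* were at 0.55, 0.18 and -0.34 (adjusted p = 0.0750, 0.392 and 0.165, edgeR). *Pdgfra* was still called, at -0.36 (adjusted p = 0.0461, edgeR), and so was *Mobp*, an oligodendrocyte marker, at -0.33 (adjusted p = 0.0431, edgeR). None of the granule or pyramidal neuron markers was called (0 of 6 each), and no marker of any list was at 0 in a library.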

How the data were processed

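RNA from the hippocampus of 3 WT and 3 Ube3am-/p+ mice was sequenced by the authors, with 1 library per mouse. The deposited values are counts, whole numbers of reads per gene symbol, without normalization. The submitters' processing notes name STAR 2.7.4a, HTSeq and mm10, and the annotation and strand setting are not given in the sources used here. Reads on no gene made up 54.1% to 55.1% of those listed and were left out of library sizes. The members and gene lists were chosen with earlier results of these data known.

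Genes were filtered by filterByExpr, scaled by TMM and tested by the quasi-likelihood F test of edgeR 4.0.16 (R 4.3.3), two-sided, with genotype as the only factor and Benjamini-Hochberg adjustment over 14445 genes. Calls needed adjusted p below 0.05 with levels more than 1.2-fold apart. The biological coefficient of variation was 0.102, and no library was a copy of another (chi-square per degree of freedom of at least 3.78). That lowest value was for WT mouse 1 against Ube3am-/p+ mouse 1, and the lowest within a genotype was 3.95 (WT mice 2 and 3). For the correction, natural splines with 5 degrees of freedom on each gene's GC content and length, from its longest transcript in GENCODE M21 (GRCm38), were fitted to each library and used as offsets (14201 genes, 98.3%, all 71 tested members included). Alternatives were DESeq2 1.42.0, other scaling and filters, other thresholds, the replicate number as a block, and leaving out each mouse. The steps were tested on simulated data. Values were described in full for called members, the 24 members with the smallest p, and the member with the highest level per length in each family. Other members are named as partners, neighbours or low genes, and *Sema3b* after its values were seen. Of the marker and pathway lists, the report gives summed levels or counts and the genes called, with *Cldn5* in addition. Promoter sequences are from RefSeq.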

Additional observations from a re-analysis of the deposited data

How the results depend on the processing

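Against 4 guidance genes called (3 higher, 1 lower), DESeq2 and the fit without a filter on low counts each called 9 (6 higher, 3 lower), and DESeq2 size factors, library size alone and at least 10 counts in every library each called 5, of which 2 were lower. The GC and length correction called 2, of which 1 was higher, and together with the replicate block it called 0 (5 at an unadjusted p below 0.05, against 1610 of all 14201 genes, edgeR). The unadjusted p with the same fold threshold gave 18 (12 higher, 6 lower). With 1 mouse left out, the number ran from 0 to 19, with 0 to 11 higher and 0 to 8 lower. The replicate block called 0 guidance genes, 0 pathway genes and 0 of all 14445 genes (16, 17 and 2422 at an unadjusted p below 0.05, edgeR). With the block *Ube3a* was at -0.57 (adjusted p = 0.216, edgeR). Deviations from the genotype mean correlated at -0.285, -0.177 and -0.311 between same-numbered mice. Of the 6 samples, 0 correlated best with their own number. Mouse 1 of each genotype lay nearest the other genotype in how expression followed GC content. Deviations within a genotype can then oppose each other with or without pairs, so these correlations cannot decide whether the numbers mark pairs. WT mouse 1 and Ube3am-/p+ mouse 1 were the most alike libraries (chi-square per degree of freedom 3.78). The main fit did not take the numbers as pairs.

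Against 2 pathway genes (2.01% of all genes), DESeq2 called 6 (6.69%), no filter 7 (6.1%) and the GC and length correction 1 (0.648%). The correction with the replicate block called 1 (0.0915%), and the unadjusted p with the fold threshold 16 (19.6%). With 1 mouse left out the number of pathway genes called ran from 0 to 19 (at most 17.6% of all genes). The median log2 fold change of the members, 0.07, was -0.016 with the GC and length correction, -0.017 with the correction and the replicate block, and 0.043 to 0.13 with 1 mouse left out. The log2 fold change of *Ube3a*, -0.58, was -0.20 with the correction, -0.19 with the correction and block (adjusted p = 0.372, edgeR), and -0.73 to -0.48 with 1 mouse left out, called in 2 of these 6 fits. The cause of these moves was not tested.

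The direction turned with the correction alone, and with correction and replicate block, in *Epha5* (0.033 and 0.036), *Epha7* (0.0055 and 0.0049), *Ntng2* (-0.045 and -0.048), *Plxna1* (-0.083 and -0.087), *Sema7a* (-0.075 and -0.076) and *Unc5a* (-0.016 and -0.018). With both together *Robo3* was at -0.00074. With 1 mouse left out *Plxna1* ran from -0.017 (without WT mouse 3) to 0.089. The other members described in full kept their direction in every fit run. Precision is limited by 3 mice per genotype and, for members with few counts such as *Efna4*, by depth. Intervals are standard errors of the fit and cover these mice only.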
